A study of Mus musculus with 9 samples.

Results

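The 43 genes described here encode the machinery that copies DNA and the enzymes that supply its deoxynucleotides. They were taken from a list of gene symbols that covers origin licensing, helicase activation, DNA polymerases, the sliding clamp and its loader, single-strand binding, lagging-strand maturation, deoxynucleotide supply and the chromatin steps coupled to the fork. Of the 43, 42 matched an array probe by symbol or synonym, and all 42 passed the filter on dim probes. Rfc5, a subunit of the clamp loader, matched none. The 42 genes stand among 13247 named genes and 26871 probes that were kept.

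Tumours were grown from 3 variants of B16-F10, a mouse melanoma line. HDC-S has an enhanced, HDC-A a diminished and HDC-M an unmodified capacity to make histamine, through changed levels of L-histidine decarboxylase (HDC), the histamine-forming enzyme. Each group held 6 tumours, whose RNA was combined at random into 3 pools of 2 tumours, so that 9 arrays were run with 3 biological replicates per group. Every pool was labelled with Cy5 and hybridised beside the same Cy3-labelled reference, RNA of HDC-M cells grown in culture. Each group comes from 1 line variant, so the variant and the histamine level cannot be told apart. The host strain, the tumour age and the way HDC was changed are not given in the sources used here. All values below are log2 ratios of tumour over cultured cells, or differences between such ratios. A ratio of 1 on this scale means that the tumour signal was 2 times the culture signal.

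DNA replication starts in G1 phase, when the origin recognition complex, Cdc6 and Cdt1 load the Mcm2-7 helicase onto origins. Geminin (Gmnn) binds Cdt1 and prevents a further round of loading once S phase has begun. Mcm10, Cdc45 and the GINS complex turn the loaded helicase into a moving fork, polymerases then copy the strands, and the clamp PCNA, loaded by replication factor C, holds them on the template. Many of these genes are transcribed mainly in late G1 and S phase under E2F transcription factors, so their RNA levels are widely used as a measure of how many cells in a sample are cycling. In RNA from whole tumours, fewer cycling cells and less RNA per cell cannot be told apart.

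The Cy5 signal was well above background at 58.0% to 69.7% of the probe spots per array. Hdc, the gene whose level was changed, did not separate the groups. Its log2 ratio was 0.44, 0.33 and 0.61 in HDC-S, 0.15, 0.15 and 0.42 in HDC-A and 0.60, 0.48 and 0.063 in HDC-M tumours, and its reference signal was only 1.01 times that of the negative controls. Of 9 melanocyte markers, 7 were measured (Tyr, Tyrp1, Dct, Pmel, Mitf, Slc45a2 and Gpr143), all of them well above background on 9 of 9 arrays, while Mlana and Sox10 had no kept probe. Pmel, a melanosome protein, was 684 times as bright as the negative controls in the tumour channel. A pair of arrays stood apart. On the array of HDC-M pool 3 the median absolute log2 ratio of all probes was 0.133, against 0.222 to 0.248 on the other arrays. HDC-A pool 2 had the highest median of the fibroblast markers (8 of 8 measured), at 4.56, and of the skeletal muscle markers (7 of 8 measured), at 3.70. For some medians, counts of calls and single genes, values are also given without these arrays, while the other results include them.

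Promoters are shown for the 6 genes that passed a test between tumour groups and have an entry in the RefSeq promoter table (build GRCm38.p6), because many promoters of S phase genes bind E2F factors and the tumour signals of these genes moved between groups. Prim2 also passed and has no entry. Each sequence is 300 bases, read 5′ to 3′ on the gene's own strand and mostly upstream of the annotated start. They are Cdt1 at chr8:122567765-122568064 (+ strand), Cdc6 at chr11:98907901-98908200 (+ strand), Mcm5 at chr8:75109259-75109558 (+ strand), Pold1 at chr7:44548766-44549065 (- strand), Chaf1b at chr16:93883651-93883950 (+ strand) and Rfc4 at chr16:23127681-23127980 (- strand). Capitals mark every match to TTTNNCGC, the E2F-type motif searched, on either strand.

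Cdt1: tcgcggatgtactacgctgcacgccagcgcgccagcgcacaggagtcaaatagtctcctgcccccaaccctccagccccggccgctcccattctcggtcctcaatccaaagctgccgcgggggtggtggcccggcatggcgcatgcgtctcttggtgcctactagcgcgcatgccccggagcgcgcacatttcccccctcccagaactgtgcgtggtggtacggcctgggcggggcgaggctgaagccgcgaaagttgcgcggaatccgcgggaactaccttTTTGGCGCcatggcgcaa

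Cdc6: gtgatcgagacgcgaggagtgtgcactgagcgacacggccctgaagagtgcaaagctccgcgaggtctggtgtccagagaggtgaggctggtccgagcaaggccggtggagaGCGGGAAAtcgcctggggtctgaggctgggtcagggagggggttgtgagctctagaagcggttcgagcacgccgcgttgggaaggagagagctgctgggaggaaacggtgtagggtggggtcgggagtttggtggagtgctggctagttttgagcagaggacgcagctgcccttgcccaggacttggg

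Mcm5: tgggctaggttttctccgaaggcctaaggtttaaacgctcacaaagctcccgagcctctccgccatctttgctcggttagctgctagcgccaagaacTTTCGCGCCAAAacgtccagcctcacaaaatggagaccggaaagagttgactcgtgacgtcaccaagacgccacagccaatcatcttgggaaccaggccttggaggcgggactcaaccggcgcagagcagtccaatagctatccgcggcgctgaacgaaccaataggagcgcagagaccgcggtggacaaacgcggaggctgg

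Pold1: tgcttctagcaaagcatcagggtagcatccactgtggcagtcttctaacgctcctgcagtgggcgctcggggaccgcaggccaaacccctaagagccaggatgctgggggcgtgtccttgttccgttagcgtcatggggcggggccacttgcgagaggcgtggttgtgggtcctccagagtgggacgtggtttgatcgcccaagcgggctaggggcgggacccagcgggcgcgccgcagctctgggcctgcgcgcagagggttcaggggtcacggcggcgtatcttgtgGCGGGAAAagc

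Chaf1b: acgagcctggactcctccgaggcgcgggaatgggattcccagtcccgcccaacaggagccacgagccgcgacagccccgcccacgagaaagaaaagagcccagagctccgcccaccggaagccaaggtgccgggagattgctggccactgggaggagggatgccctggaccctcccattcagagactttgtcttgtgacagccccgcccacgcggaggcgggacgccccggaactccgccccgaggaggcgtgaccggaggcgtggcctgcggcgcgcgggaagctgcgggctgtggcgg

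Rfc4: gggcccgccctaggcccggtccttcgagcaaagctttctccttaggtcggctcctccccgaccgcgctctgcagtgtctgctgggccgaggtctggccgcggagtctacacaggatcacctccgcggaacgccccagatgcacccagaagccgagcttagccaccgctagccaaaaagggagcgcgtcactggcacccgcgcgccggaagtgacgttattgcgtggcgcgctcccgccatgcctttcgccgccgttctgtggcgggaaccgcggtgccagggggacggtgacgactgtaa

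In these windows Cdt1 has 1 match, with its first base at 33, Cdc6 has 1 match at -138, Pold1 has 1 match at 40, and Mcm5 has 2 overlapping matches at -153 and -149, all counted with the annotated start base as 1 and the base before it as -1. Chaf1b and Rfc4 have no match to these letters in the window. Over the 36 genes with an entry, 43 promoters were listed, and 15 of them (34.9%) held the motif, against 5.17% of all 32851 promoters. The CCAAT box, CCAAT on either strand, was in 60.5% of the genes' promoters and 37.4% of all promoters. The GC box, GGGCGG, was in 69.8% and 35.7%, and the CHR element TTTGAA of mitotic genes was in 9.30% and 17.9%. The promoters of the replication genes were also richer in G and C, with a median of 58.3% against 52.7%, and the shares are descriptions of letters with no test.

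Compared with the cultured cells, nearly all replication genes were brighter in the tumours. The cultured reference was a single RNA, so its own spread is left out, and with no dye swap a dye effect does not cancel in these ratios. By limma with Benjamini-Hochberg adjustment over all probes at 0.05, 36 of 42 genes were higher and 2 lower in HDC-S tumours than in culture, with a median log2 ratio of 0.92. In HDC-A tumours 33 were higher and 2 lower, with a median of 0.68, and in HDC-M tumours 37 were higher and 2 lower, with a median of 0.84. Among all probes, 38.2% were called higher and 26.0% lower in HDC-S, 38.9% higher and 26.8% lower in HDC-A, and 34.0% higher and 23.9% lower in HDC-M tumours, with medians of 0.063, 0.063 and 0.054. The same 32 genes were called higher in all 3 groups, Orc2 and Rpa3 were called lower in all 3, and Orc1, Pola2 and Rpa1 in none.

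**Figure D1:**
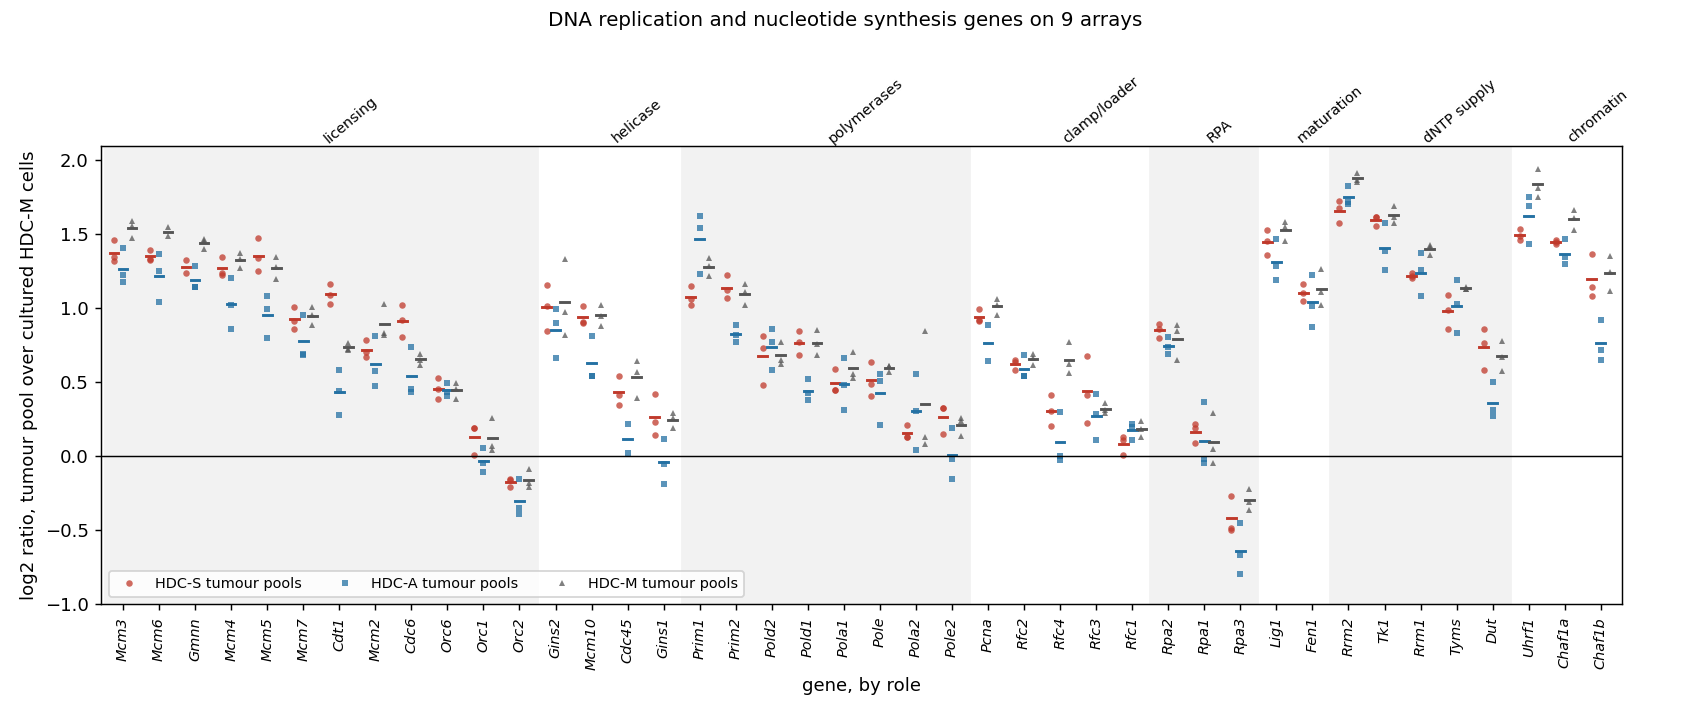
Log2 ratio of each of the 42 genes (x axis, by role) over cultured HDC-M cells (y axis) on each array, with circles, squares and triangles for HDC-S, HDC-A and HDC-M pools and short lines for group means. Most genes lie above 0, Rrm2, Uhrf1 and Tk1 highest, while Rpa3 and Orc2 lie below 0 on every array.

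The 4 genes with the highest mean over the 9 arrays were Rrm2, Uhrf1, Tk1 and Chaf1a. Rrm2, the small subunit of ribonucleotide reductase, which makes deoxynucleotides from ribonucleotides, had log2 ratios of 1.68, 1.57 and 1.73 in HDC-S, 1.83, 1.70 and 1.72 in HDC-A and 1.91, 1.85 and 1.87 in HDC-M tumours. That is 3.16, 3.36 and 3.68 times the culture signal on average. Uhrf1, which recognises hemimethylated DNA behind the fork and recruits the maintenance methyltransferase, had 1.49, 1.46 and 1.54 in HDC-S, 1.70, 1.75 and 1.44 in HDC-A and 1.81, 1.75 and 1.94 in HDC-M tumours. For both genes, the HDC-S pools lay below every HDC-M pool. Tk1, thymidine kinase of the salvage pathway, had 1.62, 1.56 and 1.62 in HDC-S, 1.58, 1.26 and 1.38 in HDC-A and 1.62, 1.58 and 1.69 in HDC-M tumours. Chaf1a, the large subunit of the chromatin assembly factor that deposits histones on new DNA, had 1.45, 1.43 and 1.46 in HDC-S, 1.47, 1.35 and 1.30 in HDC-A and 1.66, 1.53 and 1.61 in HDC-M tumours. All 4 genes were called higher than culture in every group, with adjusted p (limma) of 1.1e-07 or smaller.

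The 4 genes with the lowest mean were Rpa3, Orc2, Orc1 and Rpa1. Other subunits of these complexes in the list, Rpa2 (middle RPA subunit) and Orc6 (origin recognition), were called higher than culture in every group. Rpa2 averaged 0.85 ± 0.05 in HDC-S, 0.75 ± 0.06 in HDC-A and 0.80 ± 0.13 in HDC-M tumours (SD, n = 3 each). Orc6 averaged 0.46 ± 0.07, 0.44 ± 0.05 and 0.45 ± 0.06 in the same order of groups. The origin recognition subunits Orc3, Orc4 and Orc5, outside the 42 genes, were called lower in every group (limma), like Orc2. In the same order Orc3 averaged -0.29, -0.38 and -0.35, and Orc4 -0.50, -0.69 and -0.64. Orc5, with a reference signal 1.26 times that of the negative controls, averaged -0.20, -0.23 and -0.21. Rpa3, the smallest subunit of the single-strand binding protein RPA, had log2 ratios of -0.27, -0.49 and -0.48 in HDC-S, -0.45, -0.67 and -0.80 in HDC-A and -0.36, -0.31 and -0.22 in HDC-M tumours. Orc2, a core subunit of the origin recognition complex, had -0.15, -0.21 and -0.16 in HDC-S, -0.16, -0.39 and -0.35 in HDC-A and -0.18, -0.20 and -0.09 in HDC-M tumours. Both genes were below 0 on all 9 arrays, and both were called lower than culture in each group. Rpa3 had 0.75, 0.64 and 0.81 times the culture signal on average in HDC-S, HDC-A and HDC-M tumours, with adjusted p (limma) of 0.00057, 3.3e-05 and 0.0049. Orc1, the ATPase subunit of the origin recognition complex, had 0.19, 0.0058 and 0.19 in HDC-S, 0.06, -0.11 and -0.05 in HDC-A and 0.26, 0.067 and 0.041 in HDC-M tumours. Rpa1, the large RPA subunit, had 0.19, 0.09 and 0.22 in HDC-S, 0.37, -0.02 and -0.04 in HDC-A and -0.04, 0.05 and 0.29 in HDC-M tumours. Orc1 was above 0 on 7 of 9 arrays, among them every HDC-S and HDC-M array, and Rpa1 on 6 of 9. Neither gene passed in any group in the main fit. The Cy3 signal of Orc1 was 1.22 times that of the negative controls, and 9 of the 42 genes were under 2 times (Orc1, Cdc6, Gins1, Gins2, Cdc45, Rfc3, Pola2, Pold2 and Fen1), so their ratios rest on a dim reference.

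Within each complex the ratios to culture were unequal. The 12 licensing genes had medians of 1.01 in HDC-S, 0.70 in HDC-A and 0.92 in HDC-M tumours. Of the Mcm helicase subunits, Mcm3 averaged 1.38 ± 0.08 in HDC-S, 1.27 ± 0.12 in HDC-A and 1.54 ± 0.06 in HDC-M tumours (SD, n = 3 each), whereas Mcm2 averaged 0.72 ± 0.06, 0.62 ± 0.17 and 0.89 ± 0.12 in the same order of groups. Geminin, the inhibitor of Cdt1, averaged 1.28 in HDC-S, 1.19 in HDC-A and 1.44 in HDC-M tumours. The 8 primase and polymerase genes had lower medians, 0.59 in HDC-S, 0.47 in HDC-A and 0.64 in HDC-M tumours, and the 5 clamp and clamp-loader genes 0.44 in HDC-S, 0.27 in HDC-A and 0.65 in HDC-M tumours. Pcna, the clamp itself, averaged 0.94 in HDC-S, 0.77 in HDC-A and 1.01 in HDC-M tumours. The lagging-strand genes Lig1 (DNA ligase 1) and Fen1 (flap endonuclease) averaged 1.45 and 1.11 in HDC-S, 1.32 and 1.04 in HDC-A and 1.53 and 1.13 in HDC-M tumours. Across genes these values are ratios, and the levels of different probes were not compared. Probes of the same gene could also give unequal ratios. The Rfc2 probe used averaged 0.62 in HDC-S, 0.59 in HDC-A and 0.66 in HDC-M tumours. Its second probe averaged 1.19, 1.18 and 1.22 in the same order of groups. The second Mcm3 probe, at 1.36, 1.25 and 1.48, was close to the first.

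HDC-A tumours had the lowest average of the 3 groups for most of the genes. The HDC-A mean was the lowest for 33 of 42 genes, the HDC-S mean for 8 and the HDC-M mean for 1. Over all probes, the HDC-A mean was the lowest for 33.9%. Per array, the median over the 42 genes was 0.91, 0.85 and 0.91 in HDC-S, 0.81, 0.57 and 0.63 in HDC-A and 0.84, 0.82 and 0.87 in HDC-M tumours. All 3 HDC-A pools lay below every pool of the other groups, though HDC-A pool 1 was close to HDC-M pool 2. HDC-A pool 2 was the lowest of the 9 arrays for 26 genes. The share of all probes lowest on that array was not computed, so this count has nothing to be set against. The comparisons that follow share tumour groups, so their results are not independent of each other.

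Between HDC-A and HDC-M tumours, 39 of 42 genes were lower in HDC-A, with a median difference of -0.21 on the log2 scale. Among all probes 48.1% were lower and the median difference was 0.0062. The median of the 42 genes was -0.59 with median centring, where that of all probes was -0.11, and -0.62 with scaling between arrays. On HDC-M pool 3 the median of the genes was 2.24 with median centring, against 0.75 to 1.37 on the other arrays. Scaling also enlarges the ratios of that array. With loess and without HDC-M pool 3, the median difference was -0.19. A single gene passed the adjusted threshold, Rfc4, which was lower in HDC-A tumours, against 0.670% of all probes called lower and 0.770% called higher. At an unadjusted p under 0.05, 21 of 42 genes were lower and none higher, against 7.86% of all probes lower and 2040 of 26871 probes higher. Likewise the HDC-A arrays lay below all HDC-M arrays without overlap for 21 genes, against 10.7% of all probes, and above them for none, against 2736 of 26871 probes. The 3 genes with a higher mean in HDC-A were Prim1, Pold2 and Rpa1, and none passed.

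Rfc4, a small subunit of replication factor C, had log2 ratios of 0.30, -0.02 and 0.0028 in HDC-A tumours, against 0.77, 0.62 and 0.56 in HDC-M tumours and 0.42, 0.20 and 0.30 in HDC-S tumours. Every HDC-A pool lay below every HDC-M pool, and the tumour excess over culture seen in HDC-M was close to absent in HDC-A pools 2 and 3. The difference was -0.56 ± 0.10 (SE), or 0.68-fold, with an adjusted p of 0.037 (limma) and an exact permutation p of 0.10, the smallest that 3 against 3 arrays allow. Without HDC-A pool 2 it was -0.50 (adjusted p = 0.082, limma), without HDC-M pool 3 -0.60 (adjusted p = 0.063, limma), and when each of the 9 arrays was dropped in turn it passed 1 time, without HDC-A pool 1. The difference was -0.56 on the first scan day and -0.56 on the second.

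The next smallest p-values in this comparison belonged to Chaf1b, Pold1 and Prim2. Chaf1b, the middle subunit of chromatin assembly factor 1, had 0.92, 0.65 and 0.72 in HDC-A tumours, against 1.35, 1.12 and 1.25 in HDC-M tumours, a difference of -0.48 ± 0.10 (SE, adjusted p = 0.055 by limma). Pold1, the catalytic subunit of DNA polymerase delta, had 0.43, 0.38 and 0.52 in HDC-A, against 0.69, 0.76 and 0.85 in HDC-M tumours, a difference of -0.32 ± 0.07 (SE, adjusted p = 0.059 by limma). Prim2, the large primase subunit, had 0.88, 0.78 and 0.82 in HDC-A, against 1.11, 1.02 and 1.16 in HDC-M tumours, a difference of -0.27 ± 0.07 (SE, adjusted p = 0.077 by limma). On the probes used, the groups did not overlap for these 3 genes, and none passed the threshold. A second Pold1 probe gave -0.22 (adjusted p = 0.27 by limma), and its HDC-A and HDC-M pools overlapped.

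By role, the differences between HDC-A and HDC-M were of one sign in most sets. All 12 licensing genes were lower in HDC-A, from -0.32 for Mcm5 to -0.00061 for Orc6. Of these, 7 had an unadjusted p under 0.05, against 7.86% of all probes lower at that level. All 4 helicase activators were lower, with Cdc45 at -0.42, Mcm10 at -0.32, Gins1 at -0.29 and Gins2 at -0.19. All 5 deoxynucleotide enzymes were lower, from -0.31 for Dut, which removes dUTP, to -0.12 for Tyms, thymidylate synthase. The 3 chromatin genes were lower, with Chaf1a at -0.23 and Uhrf1 at -0.21 beside Chaf1b. Of the RPA subunits Rpa3 was at -0.34, while Rpa2 was at -0.05 and Rpa1 at 0.0021. None of these genes passed on its own after adjustment.

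**Figure D2:**
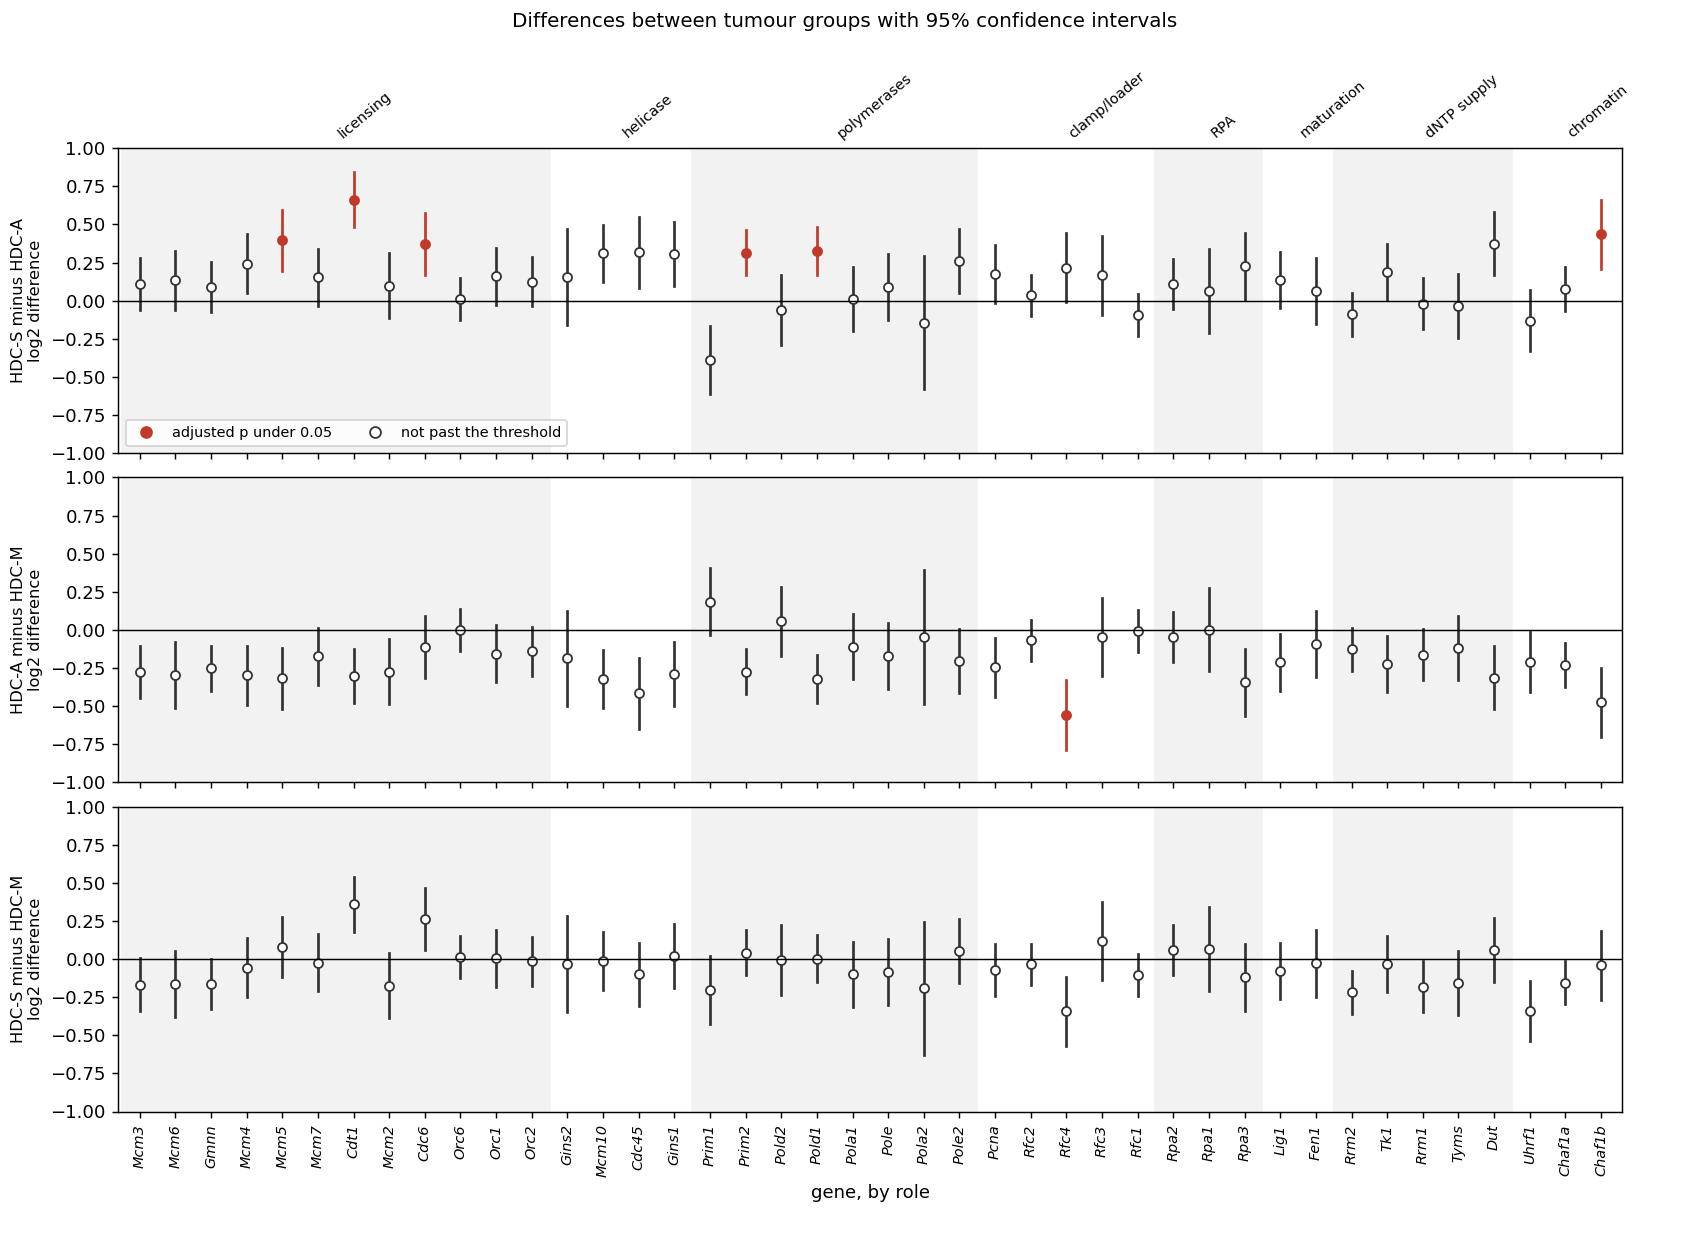
Log2 difference (y axis) of each gene (x axis, by role) for HDC-S minus HDC-A, HDC-A minus HDC-M and HDC-S minus HDC-M, with lines for 95% confidence intervals and filled red points for an adjusted p under 0.05. In the middle panel 39 of 42 points lie below 0 with only Rfc4 past the threshold, and in the top panel 34 lie above 0 with 6 past it.

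Between HDC-S and HDC-A tumours, 34 of 42 genes were higher in HDC-S, with a median difference of 0.13. Among all probes 51.4% were higher and the median difference was 0.0045. Of the 42, 6 passed at an adjusted p under 0.05 (limma), all higher in HDC-S, against 2.84% of all probes called higher and 2.42% called lower. They were Cdt1, Chaf1b, Mcm5, Cdc6, Pold1 and Prim2. At an unadjusted p under 0.05, 14 genes were higher and 1 lower, against 10.5% of all probes higher and 8.93% lower. The HDC-S arrays lay above all HDC-A arrays without overlap for 12 genes, against 13.3% of all probes, and below them for 1 gene, against 2983 of 26871 probes. An F-test for any difference among the 3 groups passed for 5 of 42 genes, Cdt1, Rfc4, Pold1, Prim2 and Chaf1b, against 4.65% of all probes.

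The licensing factor Cdt1 showed the largest difference of the list. Its log2 ratios were 1.09, 1.03 and 1.17 in HDC-S tumours, against 0.59, 0.28 and 0.44 in HDC-A tumours and 0.76, 0.73 and 0.72 in HDC-M tumours. The 3 groups did not overlap, with HDC-S highest and HDC-A lowest. HDC-S exceeded HDC-A by 0.66 ± 0.08 (SE), or 1.58-fold, with a confidence interval from 0.48 to 0.84 and an adjusted p of 0.0049 (limma). The exact permutation p was 0.10, the smallest possible. Dropping each array in turn kept the call 9 of 9 times, with adjusted p from 0.0087 to 0.028 (limma). The difference was 0.63 on the first and 0.73 on the second scan day.

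The licensing genes Cdc6 and Mcm5 moved the same way. Cdc6, which loads the helicase together with Cdt1, had 0.92, 0.81 and 1.02 in HDC-S tumours, against 0.74, 0.44 and 0.45 in HDC-A and 0.69, 0.65 and 0.62 in HDC-M tumours. Every HDC-S pool lay above every pool of the other groups. The HDC-S excess over HDC-A was 0.37 ± 0.09 (SE, adjusted p = 0.0486 by limma), but a second, dimmer Cdc6 probe gave -0.15 (adjusted p = 0.83 by limma), so the gene's probes disagree. With the replicate number as a block the adjusted p of the main Cdc6 probe was 0.056 (limma). Mcm5, a subunit of the Mcm2-7 helicase, had 1.34, 1.25 and 1.47 in HDC-S tumours, against 1.08, 0.80 and 0.99 in HDC-A and 1.28, 1.20 and 1.34 in HDC-M tumours. Its HDC-S excess over HDC-A was 0.40 ± 0.09 (SE), or 1.32-fold, with an adjusted p of 0.035 (limma). The HDC-M pools of Mcm5 overlapped the HDC-S pools and lay above the HDC-A pools.

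The other genes past the threshold were Chaf1b, Pold1 and Prim2, whose HDC-A and HDC-M values stand above. Chaf1b had 1.14, 1.09 and 1.37 in HDC-S tumours and exceeded HDC-A by 0.44 ± 0.10 (SE, adjusted p = 0.041 by limma). Pold1 had 0.77, 0.69 and 0.85 in HDC-S tumours and exceeded HDC-A by 0.32 ± 0.07 (SE, adjusted p = 0.031 by limma). A second Pold1 probe gave 0.19 (adjusted p = 0.26 by limma), of the same sign and not called, and its HDC-A pools overlapped those of both other groups. Prim2 had 1.12, 1.07 and 1.23 in HDC-S tumours and exceeded HDC-A by 0.31 ± 0.07 (SE, adjusted p = 0.028 by limma). On the probes used for these 3 genes, the HDC-S and HDC-M ranges overlapped, and HDC-A lay apart. Among genes that did not pass, Dut was at 0.37 (adjusted p = 0.051, limma), Mcm10 at 0.31, Cdc45 at 0.32 and Gins1 at 0.31.

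**Figure D3:**
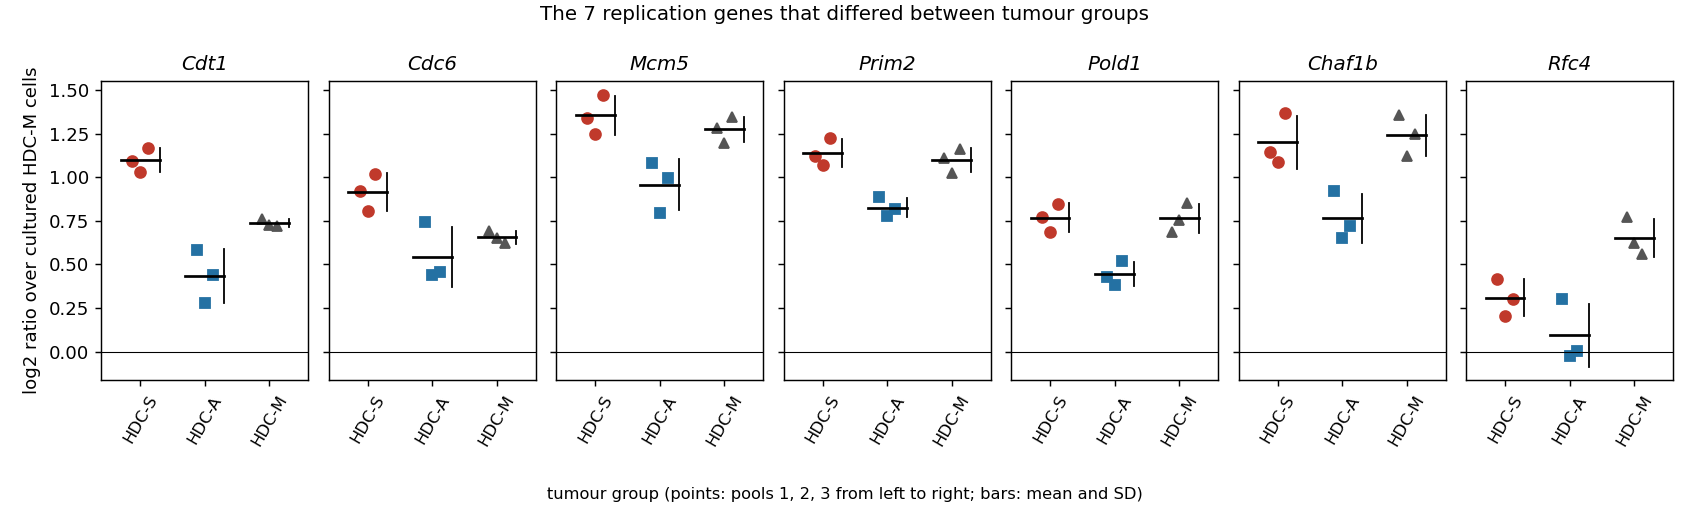
Log2 ratio over cultured HDC-M cells (y axis) of the 7 genes that passed a test between tumour groups, in HDC-S, HDC-A and HDC-M pools (x axis), with bars for the mean and SD. Cdt1 falls into 3 separate levels, at 1.03 to 1.17 in HDC-S, 0.28 to 0.59 in HDC-A and 0.72 to 0.76 in HDC-M, and Rfc4 is highest in HDC-M.

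Prim1, the catalytic primase subunit, had the largest difference of opposite sign among the 42 genes and was picked out after its values were seen. It had 1.06, 1.02 and 1.15 in HDC-S tumours, against 1.63, 1.23 and 1.55 in HDC-A and 1.29, 1.22 and 1.34 in HDC-M tumours. Every HDC-S pool lay below every HDC-A pool, with a difference of -0.39 ± 0.10 (SE) that did not pass (adjusted p = 0.055, limma). Prim1 and Prim2, the partners of the primase dimer, thus had differences of opposite sign between HDC-S and HDC-A tumours. The other genes with a lower mean in HDC-S than in HDC-A were Rfc1, Pola2, Pold2, Rrm1, Rrm2, Tyms and Uhrf1, and none passed.

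The calls between HDC-S and HDC-A depended on single arrays. Leaving out an array left 5 calls without HDC-A pool 1, 4 without HDC-M pool 3, 3 without HDC-M pool 1, 2 without HDC-A pool 2 or HDC-M pool 2, and 1, which was Cdt1, without HDC-A pool 3 or any HDC-S pool. Leaving out an HDC-M array alters this comparison only through the spread that all groups share. Without HDC-A pool 2, the median difference over the 42 genes was 0.068 in place of 0.13 for HDC-S against HDC-A, and -0.14 in place of -0.21 for HDC-A against HDC-M, with 36 of 42 genes lower. Without HDC-M pool 3 the median for HDC-A against HDC-M was -0.19, with 38 of 42 genes lower. On the first scan day the median differences were 0.11 for HDC-S against HDC-A and -0.19 for HDC-A against HDC-M, and on the second they were 0.23 and -0.26. For HDC-S against HDC-M they were -0.071 on the first and -0.029 on the second. With the arrays of the first scan day alone none of the 42 genes was called in either comparison (limma).

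Between HDC-S and HDC-M tumours, none of the 42 genes passed in either direction (limma), against 0.439% of all probes called higher and 0.242% called lower. The median difference was -0.038, and 29 of 42 genes were lower in HDC-S, against 46.8% of all probes. The median was -0.44 with median centring and -0.46 with scaling between arrays in place of loess alone. On HDC-M pool 3 the median of the genes was 2.24 with median centring, against 0.75 to 1.37 on the other arrays. Scaling also enlarges the ratios of that array. With loess and without HDC-M pool 3, the median difference was -0.039. At an unadjusted p under 0.05, 5 genes were lower and 2 higher, against 6.41% of all probes lower and 2181 of 26871 probes higher. The HDC-S arrays lay below all HDC-M arrays for 12 genes, against 10.4% of all probes, and above them for 2 genes, against 3191 of 26871 probes. Cdt1 was 0.36 ± 0.08 higher in HDC-S (SE, interval 0.18 to 0.54, adjusted p = 0.083 by limma), and Cdc6 was 0.26 ± 0.09 higher (SE, adjusted p = 0.22 by limma). Of the others, Uhrf1 differed by -0.34 ± 0.09 (SE, adjusted p = 0.12 by limma), Rfc4 by -0.34 ± 0.10 (SE, adjusted p = 0.16 by limma) and Rrm2 by -0.22 ± 0.06 (SE, adjusted p = 0.16 by limma), all lower in HDC-S. For each of these 5 genes the pools of the 2 groups did not overlap.

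Values of cell type markers varied between the same arrays. The median log2 ratio of 12 macrophage markers, all measured, ranged from 1.33 to 2.06 in HDC-S, 1.29 to 2.13 in HDC-A and 0.77 to 1.51 in HDC-M tumours. The median of 8 fibroblast markers ranged from 1.59 to 3.88 in HDC-S, 1.95 to 4.56 in HDC-A and 1.87 to 3.30 in HDC-M tumours. The median of 7 of 8 skeletal muscle markers ranged from 0.64 to 2.26 in HDC-S, 1.47 to 3.70 in HDC-A and 1.08 to 1.62 in HDC-M tumours. The endothelial markers (8 of 8 measured) ranged from 0.81 to 0.85 in HDC-S, 0.59 to 1.36 in HDC-A and 0.55 to 0.99 in HDC-M tumours. HDC-A pool 2, the lowest array for the replication genes, was the highest for these 4 marker lists. HDC-A pool 1, the highest HDC-A array for the replication genes, was the lowest HDC-A array for the macrophage and fibroblast markers. It was not the lowest for the muscle and endothelial markers, where HDC-A pool 3 was lowest. The keratinocyte markers (7 of 8 measured) ranged from 0.14 to 1.44 in HDC-S, 1.52 to 3.09 in HDC-A and 2.33 to 3.20 in HDC-M tumours, and the T and NK cell markers (8 of 10 measured) from 0.24 to 0.29, 0.12 to 0.34 and 0.08 to 0.28 in the same order of groups. The melanocyte markers, which mark the tumour cells, had medians per array from -0.09 to 0.19 in HDC-S, 0.25 to 0.36 in HDC-A and 0.11 to 0.69 in HDC-M tumours. HDC-A pool 2 was not the highest array for the keratinocyte, T and NK cell or melanocyte markers, at 3.09, 0.24 and 0.36. Among the HDC-A pools it was the highest for the keratinocyte and melanocyte markers. Between HDC-A and HDC-M, 5 of the 7 melanocyte markers were lower in HDC-A, against 48.1% of all probes, with a median difference of -0.24. An unadjusted p under 0.05 was reached by 4, all lower, against 7.86% of all probes lower, and none passed after adjustment (limma). The part of all these markers in the differences of the replication genes was not tested.

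**Figure D4:**
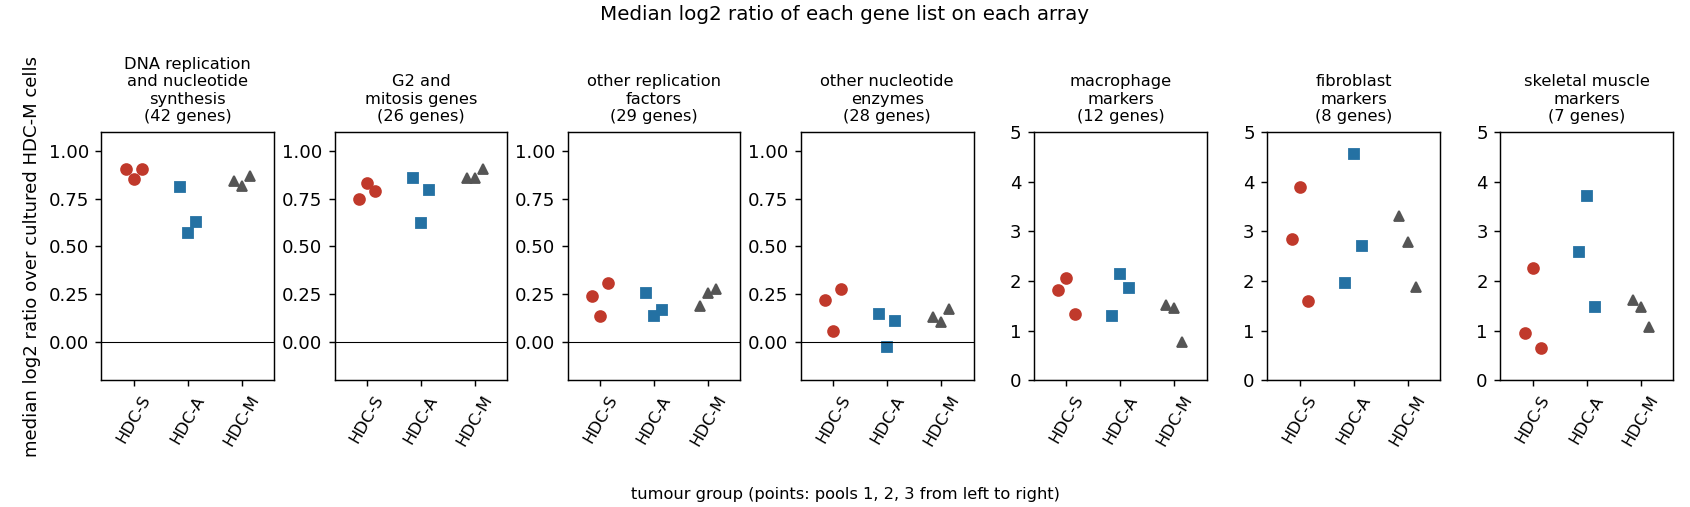
Median log2 ratio over cultured HDC-M cells (y axis, wider range in the 3 marker panels) of 7 gene lists on each array, in HDC-S, HDC-A and HDC-M pools (x axis). With the loess values shown, the HDC-A pools hold the lowest 3 values of the replication genes, at 0.81, 0.57 and 0.63. HDC-A pool 2 holds the highest fibroblast and muscle values.

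Calls in this gene list and in those below were not repeated with single arrays left out. Of 30 other replication factors 29 were measured, and 22 of them were lower in HDC-A than in HDC-M with a median of -0.10 and none past the threshold. Of all probes 48.1% were lower. The smallest p-values there were those of Mcmbp, a binding partner of the Mcm complex, at -0.20, and Asf1b, a histone chaperone, at -0.23 (adjusted p = 0.18 for each, limma). Between HDC-S and HDC-A, Dscc1, a subunit of an alternative clamp loader, averaged 0.95 ± 0.15 in HDC-S, against 0.47 ± 0.20 in HDC-A tumours (SD, n = 3 each; adjusted p = 0.0485, limma) and was the only one of the 29 past the threshold, where 2.84% of all probes were called higher. Between HDC-S and HDC-M none of the 29 passed. Chtf18, another subunit of that loader, at -0.25 and Dscc1 at 0.29 had the smallest p-values. Against culture, 17 of the 29 were called higher and 7 lower in HDC-S, 15 higher and 9 lower in HDC-A, and 16 higher and 8 lower in HDC-M tumours, where 38.2%, 38.9% and 34.0% of all probes were called higher and 26.0%, 26.8% and 23.9% lower, with medians of 0.19, 0.21 and 0.23.

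Of 29 other nucleotide synthesis enzymes 28 were measured. Between HDC-S and HDC-A tumours 21 of the 28 had a higher mean in HDC-S, with a median difference of 0.10, and 3 were called higher, against 2.84% of all probes. Adsl, adenylosuccinate lyase of purine synthesis, averaged 1.19 ± 0.07 in HDC-S, against 0.60 ± 0.22 in HDC-A tumours (SD, n = 3 each; adjusted p = 0.014, limma). Umps, which makes UMP, averaged 0.66 ± 0.12 in HDC-S, against 0.24 ± 0.09 in HDC-A tumours (SD, n = 3 each; adjusted p = 0.016, limma). Mthfd2, a mitochondrial folate enzyme, was below culture in every group, at -1.14 ± 0.09 in HDC-S, against -1.62 ± 0.09 in HDC-A tumours (SD, n = 3 each; adjusted p = 0.020, limma). No enzyme of the 28 passed against HDC-M. The smallest p-values there belonged to Nme2, a nucleoside diphosphate kinase, at 0.41 and Adsl at 0.39 in HDC-S, and to Mthfd2 at -0.42 and Ctps2, a CTP synthase, at -0.27 in HDC-A.

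Among 17 measured of 18 E2F and Rb pathway regulators, Cdkn1a stood out. It encodes p21, an inhibitor of cyclin-dependent kinases that restrains entry into S phase. Its log2 ratio was -0.38, -0.48 and -0.52 in HDC-S, 0.39, 0.20 and 0.65 in HDC-A and -0.48, -0.59 and -0.61 in HDC-M tumours. It was above culture in every HDC-A pool and below culture in every other pool. The difference was 0.98 ± 0.10 for HDC-A against HDC-M (SE, adjusted p = 0.0066 by limma) and -0.87 ± 0.10 for HDC-S against HDC-A (SE, adjusted p = 0.0049 by limma). E2f6, a repressive E2F, was at -0.50 ± 0.08 in HDC-S, against -0.05 ± 0.12 in HDC-A tumours (SD, n = 3 each; adjusted p = 0.012, limma). No regulator passed between HDC-S and HDC-M, where E2f2 at -0.29 and E2f6 at -0.27 had the smallest p-values, and E2f8 at -0.28 followed Cdkn1a between HDC-A and HDC-M.

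The G2 and mitosis genes, 26 measured of 28, had medians against culture of 0.78 in HDC-S, 0.76 in HDC-A and 0.90 in HDC-M tumours. Of the 26, 22 were lower in HDC-A than in HDC-M, with a median of -0.14, where 48.1% of all probes were lower. Only Cdc25b, the phosphatase that activates mitotic Cdk1, passed, at -0.55 ± 0.07 (SE, adjusted p = 0.015 by limma), against 0.670% of all probes called lower. Between HDC-S and HDC-A, Cdc25b was higher by 0.51 ± 0.07 (SE, adjusted p = 0.0075 by limma). In the same comparison Foxm1, a transcription factor of mitotic genes, was lower in HDC-S, at -0.46 ± 0.08 (SE, adjusted p = 0.017 by limma), and cyclin B1 (Ccnb1) was at -0.43 ± 0.10 (SE, adjusted p = 0.046 by limma). Of the replication genes 6 were called in this comparison, all higher, and of the 26 mitotic genes 1 was called higher and 2 lower, against 2.84% of all probes called higher and 2.42% lower. The difference between the lists was not tested. Between HDC-S and HDC-M no mitotic gene passed, and Foxm1 at -0.42 and Ccna2, cyclin A2, at -0.26 had the smallest p-values.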

How the data were processed

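Tumour RNA pools of 3 groups were measured on 9 Agilent 2-colour mouse arrays against 1 reference. For each spot and dye the deposited files give an intensity and a local background, written by Feature Extraction 8.5.1.1 per the file headers. The deposited value table is in log10 units. It equals the log10 ratio column (Cy5 over Cy3) of the scanner files at all 43790 spots, so its scale and direction are settled, and its medians per array run from -0.0094 to 0. The authors gave no genome build in the sources used here.

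Signals were corrected with normexp (offset 50) and normalised by loess within each array with limma 3.58.1 in R 4.3.3, giving log2 ratios from the deposited intensities. Control and outlier spots had weight 0 and were then left out. This left 8 of 9 arrays usable for Mcm6, Cdc45, Gmnn and Pcna. Spots of a probe were averaged, and 26871 of 41174 probes were kept, those with Cy5 well above background on 3 or more of 9 arrays. All 42 genes had it on 9 of 9. The same mark in Cy3 was not used, since 95% or more of the negative controls carry it. Probes were named through RefSeq accessions (22072 probes), another accession (135) or symbols and synonyms in their descriptions (654 and 858), and 17455 had no name. The brightest probe stood for a gene. For 7 genes a second probe exists.

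All 9 arrays were fitted in 1 limma model with no block, with 3 contrasts between tumour groups, 3 ratios against 0 and an F-test. P-values were adjusted by Benjamini-Hochberg over all kept probes, at a threshold of 0.05. Exact permutation tests are two-sided over 10 splits. The precision is limited by 3 arrays per group. The fit was tested on simulated data. No consistent pairing of the arrays by replicate number was seen, though the check cannot exclude one. The alternatives changed the background correction, normalisation, channel, filter, probe choice, blocks and arrays used.

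The genes, the other lists and the marker lists were chosen with earlier results of these data known. Values per array are given for genes that passed between tumour groups, for the 4 smallest p-values per contrast and for the 4 highest and lowest means against culture. From other lists, genes past the threshold are named, else the 2 smallest p-values per contrast.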

Additional observations from a re-analysis of the deposited data

Results flagged for a closer look

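For 7 genes the tumour-to-culture log2 ratio differed between tumour groups by limma's test of the difference at an adjusted p under 0.05. Rfc4 differed by -0.56 for HDC-A against HDC-M. For HDC-S against HDC-A, Cdt1 differed by 0.66, Chaf1b by 0.44, Mcm5 by 0.40, Cdc6 by 0.37, Pold1 by 0.32 and Prim2 by 0.31. The sign was the same on both scan days for each of the 7.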

How the results depend on the processing

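The alternatives cover the 42 genes, and calls in the other gene lists were not put through them. Of the calls between tumour groups among the 42, only the Cdt1 call for HDC-S against HDC-A passed in each of 9 fits without one array. It passed in 19 of the alternatives in all and missed under median centring, scaling between arrays and the first scan day alone. Rfc4 (HDC-A against HDC-M) passed in 7 alternatives, and of the HDC-S against HDC-A calls Prim2 passed in 11, Mcm5 in 9, Pold1 in 8, Chaf1b in 7 and Cdc6 in 2. HDC-S against HDC-M had 0 calls in each alternative run. Across the alternatives 35 to 42 of 42 genes were lower for HDC-A against HDC-M, 31 to 36 higher for HDC-S against HDC-A and 24 to 41 lower for HDC-S against HDC-M.

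The count of genes called for HDC-A against HDC-M was 4 with no background correction, 2 with plain subtraction, with the Cy5 channel alone or with Cy5 well above background on all arrays, and 0 with median centring, scaling between arrays, the authors' value table, the first scan day alone or only the compared groups in the fit. For HDC-S against HDC-A it was 0 with median centring, scaling or the first scan day alone, 1 with the authors' value table or only the compared groups, and 2 with the Cy5 channel alone. The F-test called 0 genes with median centring, scaling, the value table or the first scan day alone, and 3 with scan day as a block. Without one array the counts ranged from 0 to 1 for HDC-A against HDC-M, 1 to 5 for HDC-S against HDC-A and 1 to 4 for the F-test. For HDC-A tumours against culture, 13 genes were called with scaling between arrays, against 35.

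Scaling by construction enlarges the ratios of HDC-M pool 3, and with median centring the median of the genes on that array was 2.24, against 0.75 to 1.37 on the others. Median centring moved the median of all probes to -0.12 for HDC-S against HDC-M, to -0.11 for HDC-A against HDC-M and to 0.27 for HDC-M tumours against culture. The median of the 42 genes moved to -0.44 with median centring and -0.46 with scaling for HDC-S against HDC-M, and to -0.59 and -0.62 for HDC-A against HDC-M. The sign of Cdt1 for HDC-S against HDC-M turned under both, to -0.10 and -0.0018. Under median centring Orc2 turned to 0.19 in HDC-S, 0.079 in HDC-A and 0.63 in HDC-M tumours against culture, Orc1 to 0.16 in HDC-A and Rpa3 to 0.51 in HDC-M. Orc1 in HDC-A turned to 0.025 in the value table and, without one HDC-A pool, ranged from -0.079 to 0.0052. Rpa1 in HDC-A ranged from -0.031 to 0.17 without one HDC-A pool and was -0.043 on the second scan day. Against culture, Orc1 passed in 4 alternatives in HDC-S, 2 in HDC-M and 0 in HDC-A tumours. Rpa1 passed in 2, 1 and 0 in the same order. The cause of the other shifts was not tested.

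With a replicate block the calls numbered 1 for HDC-A against HDC-M, 7 for HDC-S against HDC-A, 0 for HDC-S against HDC-M and 5 by the F-test. Arrays of the same number had correlations of their deviations from -0.19 to 0.55, and 3 of 9 arrays correlated best with their own number. The highest value was that of HDC-A pool 2 with HDC-S pool 2, against at most 0.28 for arrays of other numbers. Every pool 3 was scanned on the second day and the other pools on the first. No consistent pairing by number was seen, but with so few arrays the check cannot exclude one.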

Other observations

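A probe outside the list is described only by the full name of replication factor C subunit 5 (Rfc5). Its log2 ratio averaged 0.56 ± 0.11 in HDC-S, 0.32 ± 0.10 in HDC-A and 0.46 ± 0.12 in HDC-M tumours (SD, n = 3 each), and it did not pass between any groups (limma, adjusted p from 0.16 to 0.65).

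Second probes of 6 of the 7 genes that have them gave the same sign as the first for HDC-A against HDC-M. The exception was Cdc6, at 0.18 for the second probe and -0.11 for the first, with neither past the threshold. For HDC-S against HDC-A the signs differed for Cdc6, at -0.15 for the second probe and 0.37 for the first, and for Tyms, at 0.078 and -0.037. For HDC-S against HDC-M they differed for Dut, at -0.060 for the second and 0.060 for the first, and for Pold1, at -0.022 and 0.0032. The second Uhrf1 probe gave -0.36 for HDC-S against HDC-M (adjusted p = 0.074, limma), and the second Dut probe gave 0.25 for HDC-S against HDC-A with 6 usable arrays (adjusted p = 0.35, limma).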
